A study of Rattus norvegicus with 6 samples.

Results

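The 10 genes described here, Atf4, Atf3, Ddit3, Trib3, Chac1, Asns, Xbp1, Herpud1, Sesn2 and Ern1, belong to the ATF4 and unfolded protein response. They were chosen by name, as the rows of the count table whose symbol equals one of these names, and all 10 were found among the 20609 genes of the table. RNA-seq was performed in rat PC12 cells, a line from a tumor of the adrenal medulla, with 3 libraries from cells transfected with a control plasmid and 3 from cells transfected with a PCBP-1 plasmid (PCBP1-OE). PCBP-1 is a protein that binds poly(C) stretches of RNA, and the plasmid carried it with an EGFP tag, while the content of the control plasmid is not given in the sources used here. Cells of both groups had the same parent line, and the study describes the overexpression both as stable and as a lipid transfection.

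When unfolded proteins collect in the endoplasmic reticulum (ER), 3 sensors in its membrane respond. PERK, which the gene Eif2ak3 encodes, phosphorylates the initiation factor eIF2alpha, which lowers translation in general but lets ATF4 protein be made from its mRNA. IRE1, encoded by Ern1, splices the Xbp1 mRNA into a form that encodes an active transcription factor, and ATF6 is cut in the Golgi to release its own. Other kinases reach eIF2alpha without the ER, upon double-stranded RNA, heme shortage or amino acid shortage, so that the ATF4 genes are also called the integrated stress response. Counts per gene measure mRNA alone, and neither the eIF2alpha phosphorylation, the ATF4 protein nor the spliced share of Xbp1 was measured.

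ATF4 dimers bind C/EBP-ATF response elements (CARE), and ATF6 and XBP1 bind ER stress response elements (ERSE, ERSE-II). The promoter sequences of those of the 10 genes that hold such letters are shown because these genes are the read-out of the different branches in the results. RefSeq sequences of the assembly GRCr8 were searched on both strands for TGATGNAA (CARE), CCAAT and CCACG with 9 bases between them (ERSE), and ATTGG and CCACG with 1 base between them (ERSE-II) in the 250 bases before the start of each gene. Of 10 genes 8 were matched to a sequence by symbol, and Atf3 and Ern1 were not. A CARE match was found in 3 of them, against 3.4% of all 33469 windows of this length, an ERSE match in 1, against 0.0657% of windows, and an ERSE-II match in 1, against 0.0418%. Atf4, Ddit3, Asns and Sesn2 held none of these letters in this window. The matches are descriptions of the sequence and no measure of binding. The windows run 5′ to 3′ toward the start of the gene, with the matches in capitals; the capitals of Trib3 and Chac1, and the first of Herpud1, read CARE on the opposite strand. The windows lie at chr3:161275534-161275783 (minus strand) for Trib3, chr3:126795881-126796130 (plus strand) for Chac1, chr19:10614708-10614957 (minus strand) for Herpud1 and chr14:84604373-84604622 (plus strand) for Xbp1.
Trib3: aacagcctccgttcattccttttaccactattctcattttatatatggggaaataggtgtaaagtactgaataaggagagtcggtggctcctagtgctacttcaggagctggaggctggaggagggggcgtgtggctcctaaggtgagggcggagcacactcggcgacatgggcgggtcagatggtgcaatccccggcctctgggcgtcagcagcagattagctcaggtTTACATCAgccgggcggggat
Chac1: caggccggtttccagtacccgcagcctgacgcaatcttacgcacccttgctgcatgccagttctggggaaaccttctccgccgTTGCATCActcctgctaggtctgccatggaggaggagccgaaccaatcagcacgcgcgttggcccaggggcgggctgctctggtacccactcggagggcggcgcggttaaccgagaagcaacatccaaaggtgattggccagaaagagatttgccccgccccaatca
Herpud1: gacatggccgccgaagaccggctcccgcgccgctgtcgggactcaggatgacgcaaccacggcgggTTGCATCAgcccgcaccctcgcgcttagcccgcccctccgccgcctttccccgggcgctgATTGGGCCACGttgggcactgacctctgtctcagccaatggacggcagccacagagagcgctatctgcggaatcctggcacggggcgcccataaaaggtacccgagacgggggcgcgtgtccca
Xbp1: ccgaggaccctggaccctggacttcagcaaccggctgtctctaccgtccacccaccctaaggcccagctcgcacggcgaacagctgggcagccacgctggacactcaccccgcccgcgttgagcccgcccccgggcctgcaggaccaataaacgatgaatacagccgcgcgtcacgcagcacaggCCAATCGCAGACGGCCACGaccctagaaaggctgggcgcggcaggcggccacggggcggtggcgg

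The libraries held 19730209 to 22315623 counts on genes, and the deposited values were raw counts. Levels are given as CPM, the count of a gene relative to the total of its library, with totals scaled by the TMM method. The PCBP-1 gene was matched to no row of the counts used here, so overexpression was not checked in these libraries. Of 9 markers of chromaffin cells, the cell type from which PC12 derives, Th was at 6.85 to 8.86 CPM and Slc18a1 at 0.758 to 1.27 CPM, while Dbh, Ddc, Chga, Chgb, Phox2a, Syt1 and Gap43 had 0 to 9 counts per library. The labelled cell type is thus not backed by its defining markers. Th had a log2FC of -0.04 (SE 0.13, edgeR FDR 0.863) and Slc18a1 of 0.47 (SE 0.28, edgeR FDR 0.296). Of 16 markers of other cell types 14 were matched, and edgeR called 0 of the 7 tested, with 1 at an unadjusted p under 0.05. The 2 of smallest p were Epcam (edgeR FDR 0.121) and Cd68 (edgeR FDR 0.185), both lower in PCBP1-OE in all 14 alternatives. The summed level of the 14 markers was 75.7 to 83.8 CPM in controls and 71.5 to 74.7 CPM in PCBP1-OE. Most of it came from Epcam at 48.0 to 57.9 CPM, with Ptprc, Aqp4, Mog and Alb at or near 0. Genes with at least 1 count numbered 16950 to 17085 in controls and 17153 to 17390 in PCBP1-OE. Neither measure overlapped between the groups, and their part in the results that follow was not tested. In such bulk libraries, fewer cells of a type and less RNA per cell cannot be told apart.

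Among the 10 genes, Trib3, Ddit3 and Sesn2 rose in PCBP1-OE, by a fitted 28.9%, 19.1% and 16.4%. All 3 are counted among the genes that ATF4 activates, and all changes were well under 2-fold. The other 7 genes did not pass the test, among them Atf4 itself, 10.3% higher, and Asns, the single member with a lower level, at a change of -9.60%. Genes were tested by the quasi-likelihood test of edgeR, with changes given as log2 fold change (log2FC) with its standard error (SE), and with the p-value adjusted over all tested genes as the false discovery rate (FDR). At an FDR of 0.05 or less, 3 of 10 members were called, all higher. Of all 12624 genes tested, 9.45% were called, 4.45% higher and 5% lower (562 and 631 genes, or 655 and 427 with upper-quartile scaling). The median log2FC of the 10 members was 0.15, beside 0.0029 for all genes tested. At an unadjusted p under 0.05 stood 8 of 10 members, beside 28.4% of all genes. The study's threshold of a 2-fold change, which 0.19% of genes passed together with the FDR, lies above the largest change of a member, 1.29-fold. In 7 of 10 members the groups did not overlap, beside 30.6% of all genes. In 6 of the 7 every PCBP1-OE library lay above every control (14.1% of all genes), and in 1, Asns, below (16.5%). Without control replicate 2 or PCBP1-OE replicate 2 Trib3 alone was called, without control replicate 3 there were 5 members, and without any of the other 3 libraries 2, while the calls over all genes ranged from 48 without control replicate 2 to 2860 without control replicate 3. No member was lost to the filter on low counts. Calls per gene are counted over 13 alternatives, which leave out a 14th fit with the replicate number as a block; that fit ended the calls of all 3 members and is given with the limits.

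**Figure D1:**
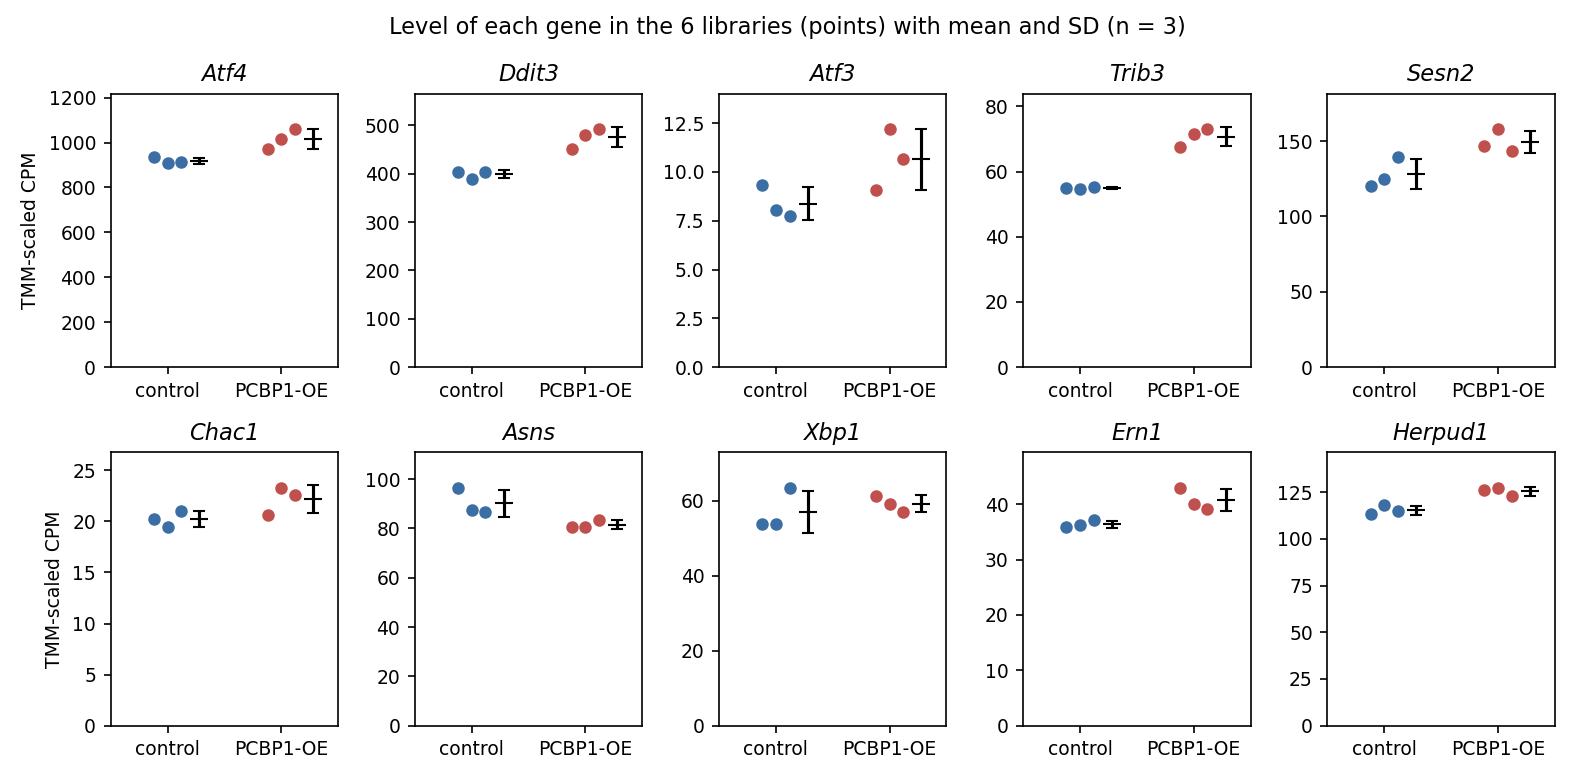
Level of each of the 10 genes in TMM-scaled CPM, with 1 panel per gene, a point for each library and a bar for mean and SD (n = 3 per group). The groups stand apart for Trib3 (54.5 to 55.1 against 67.6 to 73.0) and Ddit3 (389.8 to 403.8 against 451.9 to 491.9), while those of Xbp1 overlap.

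**Figure D2:**
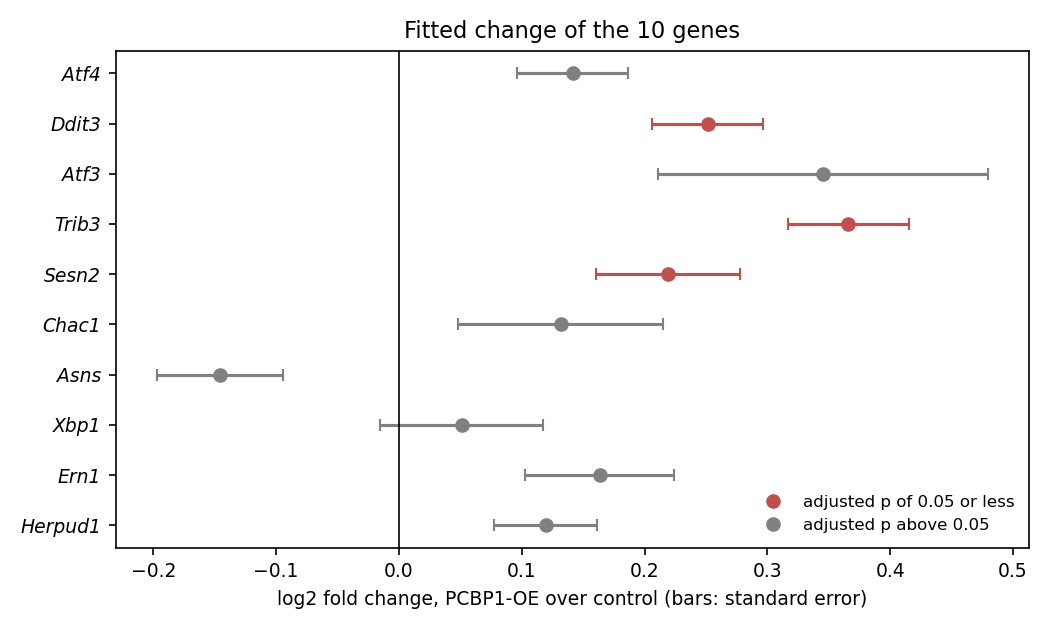
Fitted log2FC of PCBP1-OE over control for the 10 genes, with bars for the standard error and color for the FDR. Trib3 (0.37), Ddit3 (0.25) and Sesn2 (0.22) have an FDR of 0.05 or less, and Asns (-0.15) is the only point left of 0.

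Atf4 (ENSRNOG00000017801, chromosome 7) encodes the transcription factor that gives the response its name. Its level was 934.7, 910.9 and 912.9 CPM in the 3 controls and 968.9, 1014.5 and 1059.2 CPM in PCBP1-OE, from 18328 to 21351 counts per library. The PCBP1-OE libraries all lay above the controls, and PCBP1-OE replicate 1 lay nearest to them. The log2FC was 0.14 (SE 0.05, edgeR FDR 0.0645). It passed an FDR of 0.05 in 4 of 13 alternatives, in a range of 0.0122 to 0.180, among them without control replicate 3 (0.0441) and with upper-quartile scaling (0.0408). Atf4 is therefore not called here.

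Ddit3 (ENSRNOG00000006789, chromosome 7) encodes CHOP, a partner of ATF4 that promotes cell death when stress lasts. It was at 402.8, 389.8 and 403.8 CPM in controls and at 451.9, 480.8 and 491.9 CPM in PCBP1-OE. The controls lay close together, and the lowest PCBP1-OE library was above the highest control. The log2FC was 0.25 (SE 0.05, edgeR FDR 0.00978). The FDR rose above 0.05 without control replicate 2 (0.0692) and without PCBP1-OE replicate 2 (0.0551), and the gene passed in 11 of 13 alternatives, from 6.2e-06 to 0.0692. In RefSeq annotation of GRCr8 Ddit3 overlaps Mars1, which encodes methionyl-tRNA synthetase and had a log2FC of -0.12 (SE 0.04, edgeR FDR 0.0823), opposite in sign to Ddit3. Ddit3 also overlaps LOC134479709. Of 10 members 5 overlap another annotated gene in GRCr8, the called Sesn2 among them, and whether the counting used strand is not given in the sources used here.

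Trib3 (ENSRNOG00000007319, chromosome 3) encodes a pseudokinase that ATF4 and CHOP induce and that in turn restrains ATF4 and the kinase AKT. The controls were at 55.0, 54.5 and 55.1 CPM and the PCBP1-OE libraries at 67.6, 71.6 and 73.0 CPM. The controls were almost equal, with an SD of 0.312 CPM, against 2.80 CPM in PCBP1-OE (n = 3 each), and the groups were far apart relative to either spread. The log2FC was 0.37 (SE 0.05, edgeR FDR 0.00263), and by p-value Trib3 was the 21st of the 12624 genes. It passed in 13 of 13 alternatives without the replicate block, from 6.6e-08 to 0.0216, and with any 1 library left out the log2FC stayed between 0.35 and 0.40. No annotated gene overlaps Trib3 in GRCr8.

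Sesn2 (ENSRNOG00000042785, chromosome 5) encodes sestrin 2, a leucine sensor that restrains mTORC1 and answers to p53 and NRF2 as well as ATF4. Its controls were at 120.5, 125.1 and 139.6 CPM and its PCBP1-OE libraries at 147.0, 157.9 and 143.7 CPM. Control replicate 3 came close to PCBP1-OE replicate 3, so the groups were apart by a narrow margin. The log2FC was 0.22 (SE 0.06, edgeR FDR 0.0372). This call was lost without control replicates 1 (0.167) and 2 (0.184) and without PCBP1-OE replicates 1 (0.125), 2 (0.149) and 3 (0.0584). It was stronger without control replicate 3 (0.00144). The log2FC stayed between 0.18 and 0.28 in these fits. Those that lost the call also called fewer genes in all, 48 to 697 beside 1193. Sesn2 passed in 8 of 13 alternatives. In RefSeq annotation of GRCr8 it overlaps LOC134487007.

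Atf3, Chac1 and Asns are further targets of ATF4 and did not pass the test. Atf3 (ENSRNOG00000003745, chromosome 13), a stress-induced factor of the same bZIP class, was at 9.33, 8.05 and 7.76 CPM in controls and 9.08, 12.2 and 10.7 CPM in PCBP1-OE. With 168 to 246 counts per library it was the gene of the 10 with the fewest counts, its groups overlapped, and its log2FC of 0.35 had the largest SE of the 10, 0.13 (edgeR FDR 0.112). Chac1 (ENSRNOG00000014387, chromosome 3), which degrades glutathione and is one of the most inducible ATF4 targets in many cells, was at 20.2, 19.4 and 21.0 CPM in controls and 20.6, 23.3 and 22.6 CPM in PCBP1-OE. These ranges overlapped, and the log2FC was 0.13 (SE 0.08, edgeR FDR 0.322). Neither gene passed in any of the 13 alternatives.

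Asns (ENSRNOG00000007546, chromosome 4) encodes asparagine synthetase, the textbook ATF4 target of amino acid shortage. It was at 96.5, 87.4 and 86.7 CPM in controls and at 80.4, 80.6 and 83.5 CPM in PCBP1-OE. All PCBP1-OE libraries lay below all controls, in the direction opposite to the other 9 members. The log2FC was -0.15 (SE 0.05, edgeR FDR 0.0846), and the gene passed in 1 of 13 alternatives, without control replicate 3 (0.0259).

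Xbp1, Ern1 and Herpud1 stand for the ER side of the response, and none of the 3 passed the test. Xbp1 (ENSRNOG00000010298, chromosome 14) was at 53.8, 53.9 and 63.5 CPM in controls and 61.4, 59.2 and 56.9 CPM in PCBP1-OE. Control replicate 3 was the highest of all 6 libraries, and the log2FC was 0.05 (SE 0.07, edgeR FDR 0.655). Ern1 (ENSRNOG00000012864, chromosome 10), the sensor IRE1, was at 35.8, 36.2 and 37.1 CPM in controls and 43.0, 40.0 and 39.1 CPM in PCBP1-OE. Herpud1 (ENSRNOG00000018796, chromosome 19), an ER membrane protein of ER-associated degradation that both ATF4 and ATF6 can induce, was at 113.2, 117.9 and 115.1 CPM in controls and 125.9, 127.4 and 122.8 CPM in PCBP1-OE. In Ern1 and Herpud1 the groups did not overlap. Their log2FCs of 0.16 (SE 0.06) and 0.12 (SE 0.04) had edgeR FDRs of 0.0975 and 0.0846, and neither gene passed in any of the 13 alternatives.

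Over the 13 alternatives without the replicate block, 1 of the 10 genes passed in each and 5 in none, as the plot of FDR by setting shows.

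**Figure D3:**
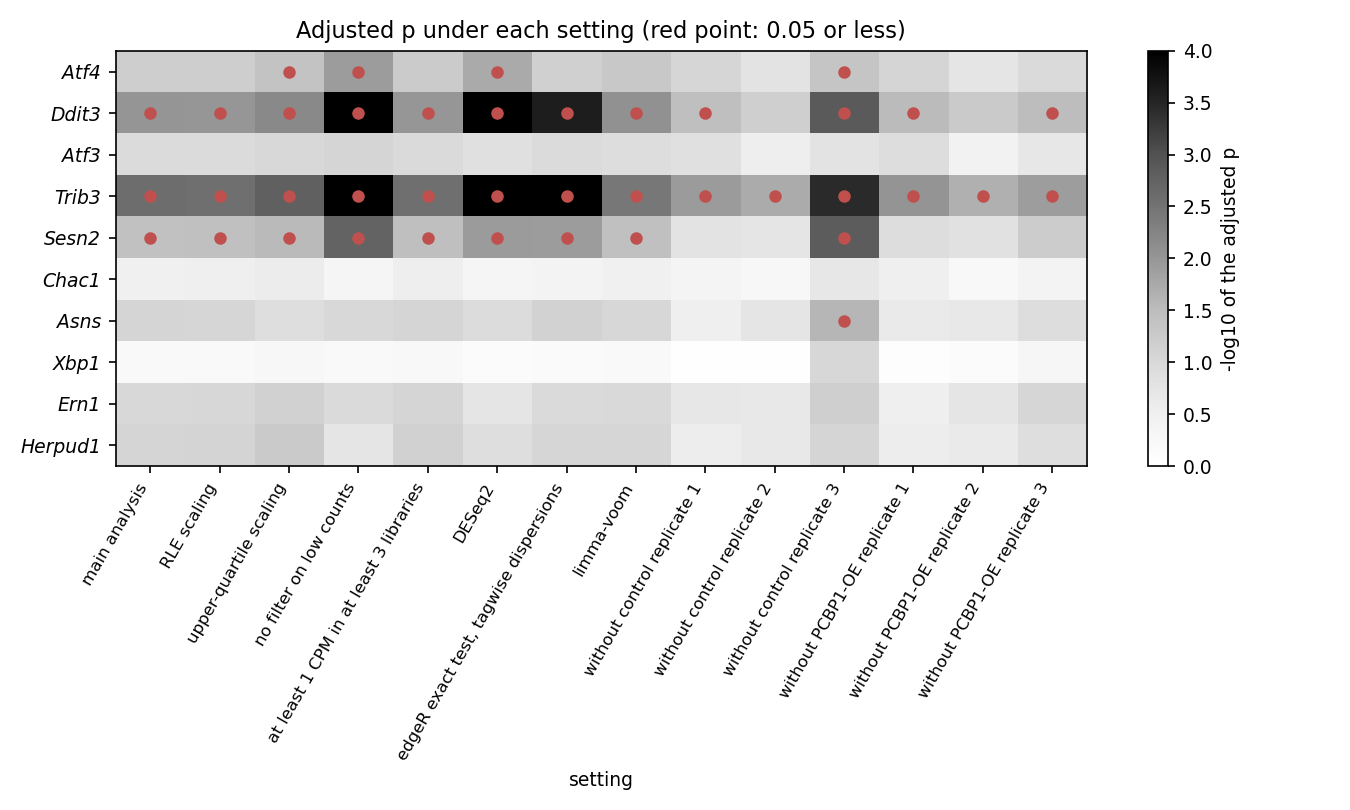
FDR of each of the 10 genes (rows) in the analysis reported and in 13 alternatives without the replicate block (columns), as -log10 of the value on a grey scale, with a red point where it is 0.05 or less. Trib3 has a point in every column, Ddit3 lacks it in 2 columns (without control replicate 2, without PCBP1-OE replicate 2), and Atf3, Chac1, Xbp1, Ern1 and Herpud1 have none.

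Since changes of this size depend on how libraries are scaled, each gene was also set against Atf4 within its library, a ratio of counts that needs no scaling. Per 100 Atf4 counts the controls held 5.88, 5.99 and 6.04 counts of Trib3 and the PCBP1-OE libraries 6.98, 7.06 and 6.89. For Ddit3 the controls held 43.1, 42.8 and 44.2 and the PCBP1-OE libraries 46.6, 47.4 and 46.4. Thus both genes were higher relative to Atf4 in all 3 PCBP1-OE libraries, by 1.17 and 1.08 times in the means. Asns went the other way, with 10.3, 9.59 and 9.50 in the controls and 8.30, 7.95 and 7.89 under PCBP1-OE, 0.820 times in the means, again with no overlap. For the other 6 members, Sesn2 among them, the groups overlapped on this ratio. The share of all genes without overlap on this ratio was not counted, and on CPM it was 30.6%. The number of members apart is therefore no result about the members. These ratios show unequal change of the genes compared, and no test was run on them.

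The pattern of the 6 libraries that is most like that of Atf4 was looked for among 12618 tested genes, with log2 CPM centred and scaled to unit SD and the root mean square difference as the measure. Outside the lists used here, the 3 nearest genes were AC131360.2 (0.147 SD), Hivep2 (0.148 SD) and Gadd45g (0.156 SD). Gadd45g, a stress-responsive gene related to Gadd45a, rose with a log2FC of 0.29 (SE 0.06, edgeR FDR 0.0120) and Hivep2, a zinc finger factor, with 0.25 (SE 0.07, edgeR FDR 0.0492), while AC131360.2, which rests on under 1 CPM in every library, had 0.96 (SE 0.37, edgeR FDR 0.109). Gadd45g passed in 12 of 13 alternatives, not without control replicate 2 (0.0692), and Hivep2 in 7. Among the members, Ddit3 came next to Atf4 in this order (0.235 SD, position 13), then Trib3 (0.313 SD, position 49), and Asns was the farthest (1.60 SD, position 9908). All genes share the 6 libraries and the contrast between groups, so nearness is a description only. The groups of Atf4 did not overlap, so genes chosen for nearness to it tend to differ between groups as well. The FDRs of genes chosen this way are therefore no separate support.

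The kinases and the phosphatase that set eIF2alpha phosphorylation stand upstream of Atf4. Of 10 genes on this list 2 rose and 8 did not pass, or 20% called beside 9.45% of all genes. The median log2FC of the list was 0.07. Eif2ak2 encodes PKR, a kinase that double-stranded RNA activates and interferon induces. It was at 79.2, 81.1 and 79.3 CPM in controls and 101.3, 110.3 and 95.5 CPM in PCBP1-OE, without overlap. Its log2FC was 0.36 (SE 0.05, edgeR FDR 0.00485), and it passed in 13 of 13 alternatives without the replicate block. Ppp1r15a encodes GADD34, which brings a phosphatase to eIF2alpha and is itself induced through ATF4 and CHOP. It was at 193.4, 178.8 and 192.9 CPM in controls and 221.9, 232.2 and 232.3 CPM in PCBP1-OE. The groups were again apart, with a log2FC of 0.28 (SE 0.05, edgeR FDR 0.00835), and the call was lost without control replicate 2 (0.0697). The other 3 kinases had log2FCs of 0.19 (SE 0.07, edgeR FDR 0.0877) for Eif2ak1, 0.03 (SE 0.07, edgeR FDR 0.803) for Eif2ak3, the ER sensor PERK, and 0.07 (SE 0.07, edgeR FDR 0.549) for Eif2ak4, the amino acid sensor GCN2. Eif2s1, which encodes eIF2alpha, was at 0.03, the constitutive phosphatase subunit Ppp1r15b at 0.07, the GCN2 inhibitor Impact at 0.08, the adaptor Nck1 at -0.09 and the PERK inhibitor Dnajc3 at -0.09, and none of these 5 passed.

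The enzymes, transporters and regulators that ATF4 is known to activate were taken as 3 lists. Called were 13.3% of the partners and other targets and 10% of the amino acid and one-carbon genes, beside 9.45% of all genes. Of the aminoacyl-tRNA synthetases 5.26% were called. On the list of ATF4 partners and other targets of the integrated stress response, 2 of 15 tested genes rose and 13 did not pass, with a median log2FC of 0.11. This count was 1 without control replicate 2, 5 without control replicate 3 (4 higher, 1 lower) and 4 with DESeq2. Over all genes the same fits called 48, 2860 and 1367. Gadd45a, a growth arrest gene that p53 also induces, was at 269.4, 258.9 and 259.6 CPM in controls and 339.4, 326.0 and 346.2 CPM in PCBP1-OE. No control came near the PCBP1-OE libraries, and the log2FC was 0.36 (SE 0.04, edgeR FDR 0.00131) and passed in 13 of 13 alternatives without the replicate block. Atf5, the paralog of Atf4, was at 231.0, 230.0 and 239.1 CPM in controls and 268.8, 280.1 and 284.6 CPM in PCBP1-OE. It rose by 0.25 on the log2 scale (SE 0.04, edgeR FDR 0.00870), and it passed in 12 of 13 alternatives without the replicate block, not without control replicate 2 (0.0697). Of the 8 matched paralogs of the members, Trib1, Trib2, Chac2, Sesn1, Sesn3, Herpud2 and Jdp2 did not pass, and Atf5 was the 1 called.

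Of the amino acid and one-carbon genes, 1 of 20 tested rose, 1 fell and 18 did not pass, and the median log2FC was -0.03. The riser was Slc38a2, the transporter SNAT2 for small neutral amino acids, with 145.8 ± 5.23 CPM in controls and 172.4 ± 11.0 CPM in PCBP1-OE (SD, n = 3 each). Its log2FC was 0.24 (SE 0.05, edgeR FDR 0.0186). Bcat1, which starts the breakdown of branched-chain amino acids, was at 552.9 ± 16.1 CPM in controls and 497.0 ± 5.02 CPM in PCBP1-OE (SD, n = 3 each), a log2FC of -0.15 (SE 0.04, edgeR FDR 0.0398), and this call was lost with upper-quartile scaling. Among the aminoacyl-tRNA synthetases 1 of 19 tested rose and 18 did not pass, with a median of 0.02. This was Eprs1, for glutamate and proline, with a log2FC of 0.20 (SE 0.05, edgeR FDR 0.0220). The 3 calls were lost in part of the fits with 1 library left out. Without control replicate 1 or 2 or PCBP1-OE replicate 1 edgeR called 0 genes of either list. At an unadjusted p under 0.05 there were 3 to 5 genes of each. The share of all genes at that p was not counted in these fits, and with all 6 libraries it was 28.4%. Over all genes these fits called 48 to 246, beside 1193 with all 6 libraries. Without control replicate 3 edgeR called 6 amino acid genes (2 higher, 4 lower) and 6 synthetases (5 higher, 1 lower), beside 2860 over all genes. DESeq2 on all 6 libraries called 2 genes of each list.

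On the list of the ATF6 branch and the ER chaperones the called genes were lower. Of 24 tested genes 4 fell, or 16.7% called beside 9.45% of all genes, and 20 did not pass, and the median log2FC was -0.10. With upper-quartile scaling 2 were called, again lower, and with RLE scaling 3. In 12 of 24 genes every PCBP1-OE library lay below every control and in 3 above, beside 16.5% and 14.1% of all genes. Calr, the calcium-binding chaperone calreticulin, was at 1099.8, 1059.3 and 973.1 CPM in controls and 888.6, 884.4 and 898.5 CPM in PCBP1-OE. The controls spread widely and all PCBP1-OE libraries lay below them, with a log2FC of -0.23 (SE 0.05, edgeR FDR 0.0178). Creld2, an ER protein induced by stress, fell by 0.23 on the log2 scale (SE 0.06, edgeR FDR 0.0272). Mbtps1, the protease S1P that cuts ATF6, fell by 0.20 (SE 0.05, edgeR FDR 0.0400), and Pdia4, a disulfide isomerase, by 0.14 (SE 0.04, edgeR FDR 0.0498). Hspa5, the chaperone BiP and the standard marker of ER stress, was at 852.8, 820.9 and 821.5 CPM in controls and 898.3, 894.0 and 902.1 CPM in PCBP1-OE. Its groups were apart in the direction opposite to Calr, and its log2FC of 0.11 (SE 0.04, edgeR FDR 0.0956) passed in 1 of 13 alternatives, DESeq2 (0.0426). Without control replicate 1 or 2, or without PCBP1-OE replicate 1 or 2, edgeR called 0 of the 24 genes. At an unadjusted p under 0.05 there were 9 to 11 of them, and the share of all genes at that p was not counted in these fits. DESeq2 on all 6 libraries called 7, 6 lower and 1 higher. Without PCBP1-OE replicate 3 there was 1, and without control replicate 3 there were 11, 8 lower and 3 higher. Calls over all genes moved in the same direction, 697 and 2860 in these fits and 48 to 246 in the fits with 0 called here.

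Calr, Creld2 and Hspa5 each hold an ERSE match before their start, shown in 30 bases with the match in capitals because they hold the same letters as Xbp1 while the level of Hspa5 was higher and those of the other two were lower. Among the genes named here Dnajc3, which did not pass, also holds an ERSE match. Gadd45g, which was called, and Ppp1r15b, which was not, each hold a CARE match. The windows of Dnajc3, Gadd45g and Ppp1r15b are not shown. The windows lie at chr19:40213130-40213159 for Calr, chr7:121789234-121789263 for Creld2 and chr3:38452968-38452997 for Hspa5, all on the plus strand of GRCr8, and the capitals of Calr and Creld2 read ERSE on the opposite strand.
Calr: caacgCGTGGTCGACCCTGATTGGcccagg
Creld2: cttctCGTGGCGAGCCTCAATTGGtccaca
Hspa5: gttcaCCAATCGGAGGCCTCCACGacgggg

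The IRE1 and XBP1 targets with the secretory machinery had 2 genes that fell and 21 that did not pass among 23 tested. That is 8.70% called, beside 9.45% of all genes, and the median log2FC was -0.03. The genes that fell were Sec61a1, the channel subunit of the ER translocon, with 275.6 ± 4.57 CPM in controls and 243.1 ± 1.88 CPM in PCBP1-OE, and Ssr4, a translocon-associated protein, with 113.6 ± 6.46 and 99.8 ± 2.88 CPM (SD, n = 3 each). Their log2FCs were -0.18 (SE 0.04, edgeR FDR 0.0201) and -0.19 (SE 0.05, edgeR FDR 0.0390). In ER-associated degradation 2 of 23 tested genes fell and 21 did not pass, again 8.70% called, and the median was -0.02. Rnf5, a ubiquitin ligase of the ER membrane, fell by 0.35 on the log2 scale (SE 0.07, edgeR FDR 0.0179), and Os9, a lectin that reads glycans of misfolded proteins, by 0.15 (SE 0.04, edgeR FDR 0.0416). Without control replicate 1 or 2 or PCBP1-OE replicate 1 or 2 edgeR called 0 genes of either list. At an unadjusted p under 0.05 there were 3 to 6 genes of each, and the share of all genes at that p was not counted in these fits. DESeq2 on all 6 libraries called 4 and 3, all lower. Without control replicate 3 the lists had 10 called genes (4 higher, 6 lower) and 6 (2 higher, 4 lower). Over all genes edgeR called 2860 in that fit and 48 to 246 in the fits with 0 called here. With upper-quartile scaling each list had 1 called gene, again lower, and the median of the degradation list turned to 0.0012.

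**Figure D4:**
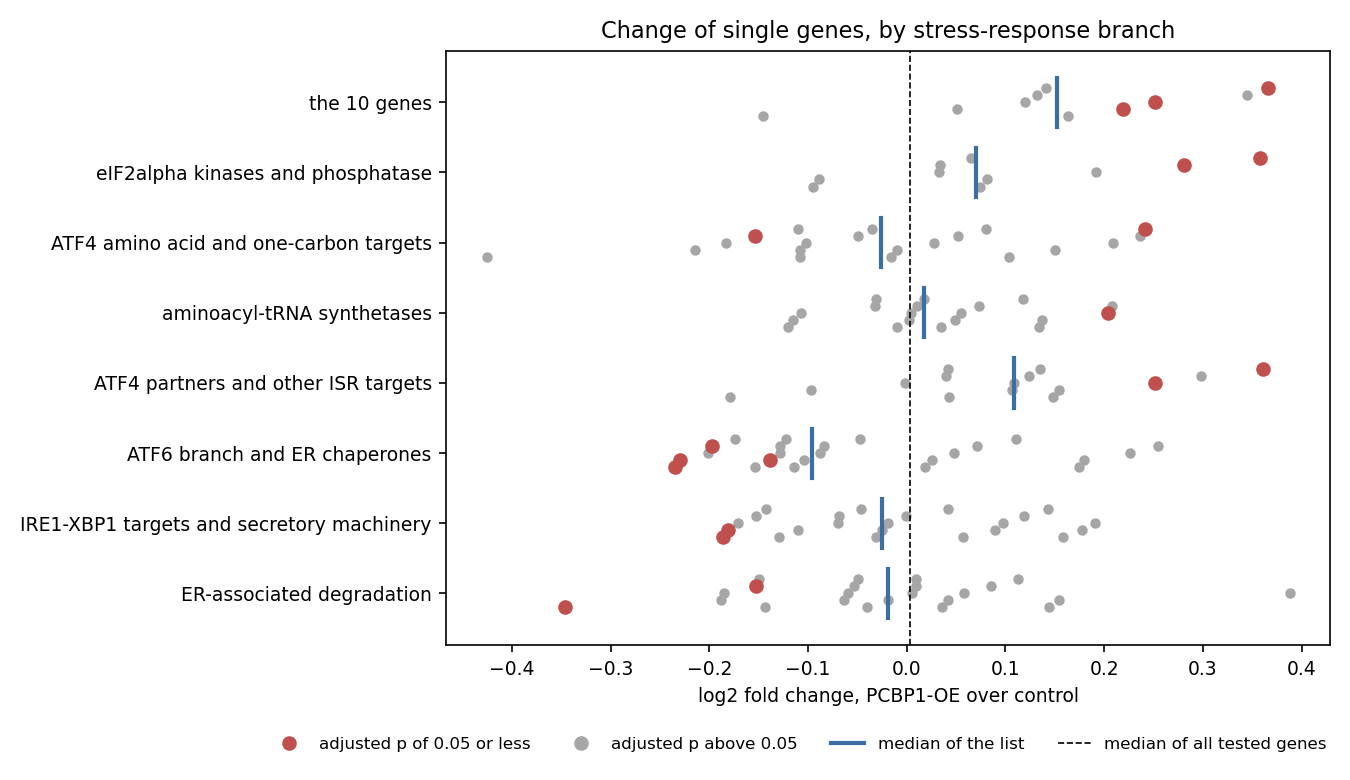
Log2 fold change of PCBP1-OE over control for every tested gene of the 10 members and of 7 pathway lists, 1 row per list, with red points for an FDR of 0.05 or less, a blue line at the median of the list and a dashed line at the median of all genes tested; small vertical offsets only separate points. The red points lie right of 0 for the members, the eIF2alpha list and the ATF4 partners, and left of 0 for the ATF6, XBP1 and ER-associated degradation lists. The amino acid list has 1 red point on each side of 0, and the synthetases have 1 to the right. Called were 30% of the members, 20% of the eIF2alpha list, 13.3% of the ATF4 partners and 16.7% of the ATF6 list. The amino acid list had 10% called, the synthetases 5.26%, and the XBP1 and degradation lists 8.70% each, beside 9.45% of all genes.

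Over the 7 pathway lists together, 15 of 134 tested genes were called, 6 higher and 9 lower, which is 11.2% beside the 9.45% of all genes. With upper-quartile scaling 8 were higher and 4 lower. The share is near that of all genes, and the median log2FC of the 134 genes was 0.0076.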

How the data were processed

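RNA-seq counts of 6 libraries were used, 3 control and 3 PCBP1-OE, with groups and replicate numbers taken from the library titles. The values deposited by the authors are raw counts for each gene. Per the methods, the FASTX-Toolkit cleaned the reads, TopHat2 placed them on Rnor_6.0, and only uniquely mapped reads entered the counts. The submitters' processing notes name GRCh38, while the gene identifiers are those of rat. The labels and the methods name different library kits. For the counting tool, strand setting and annotation release, the sources used here name none. The study calls the libraries biological replicates, but the sources used here do not say whether each came from its own culture, so p-values measure the spread between these libraries, which may be technical.

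Counts were filtered with filterByExpr (at least 10 counts in enough libraries and 15 in all), which retained 12624 genes and removed 7985, scaled by TMM and tested with the quasi-likelihood method of edgeR 4.0.16 in R 4.3.3. Benjamini-Hochberg adjustment ran over all retained genes. Totals of 19730209 to 22315623 counts set the depth. The alternatives changed the scaling (RLE, upper-quartile), the filter (none, or 1 CPM in 3 libraries) or the tool (DESeq2 1.42.0, the edgeR exact test, limma-voom of limma 3.58.1), added a block for the replicate number, or omitted 1 library at a time. The pipeline was tested on simulated counts. It recovered 43.8% of genes changed 1.25-fold, 71.7% at 1.5-fold and 91.9% at 2-fold. Of its calls there 6.38% were false. The simulation changed 73, 60 and 62 of 12617 tested genes at these folds, while 9.45% of genes were called in the data. Its spread between libraries followed gene level alone, with none particular to a gene. These shares may therefore not carry over to the data. Of 190 listed symbols 160 were matched by symbol, 20 by a RefSeq synonym (GRCr8), and 10 were not matched. The members and lists were chosen with earlier results of these data known. Genes are named as follows: all members, the tested genes of the eIF2alpha list, Hspa5, the called genes of the other lists (at most 4, or the 2 of smallest p where none is called), and the 3 genes nearest to Atf4; Mars1, the paralogs and further markers are named in addition.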

Additional observations from a re-analysis of the deposited data

How the results depend on the processing

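No member changed sign in any of the 14 alternatives. Genes called numbered 1193 in all, 2090 without a filter and 48 to 2860 with 1 library left out. Members called numbered 3, and 1 to 5 with 1 library left out, the lowest without control replicate 2 or PCBP1-OE replicate 2 and the highest without control replicate 3. Pathway list genes called numbered 15, with 26 without a filter, 24 with DESeq2 and 2 to 47 with 1 library left out. The log2 fold change of Atf4 was 0.16 with upper-quartile scaling, 0.14 without a filter and 0.14 with DESeq2, each then past an FDR of 0.05, and 0.12 to 0.17 with 1 library left out. Leaving out 1 library gave 0.23 to 0.29 for Ddit3, 0.18 to 0.28 for Sesn2 and -0.17 to -0.089 for Asns. Th, which was not called, had -0.10 to 0.047 with 1 library left out, changing sign without control replicate 2 (0.047) and without PCBP1-OE replicate 1 (0.039).

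Replicate numbers occur in both groups, but nothing says that they mark a shared culture or day. Deviations from the group mean correlated at -0.0776, -0.0514 and -0.0428 across genes for same-numbered libraries. For libraries of different number the values were -0.00757 to 0.0602. Deviations within a group sum to 0 and hold counting noise, so these values cannot decide whether the numbers pair the libraries. With the replicate number as a block edgeR called 16 genes, 0 members (7 at an unadjusted p under 0.05) and 0 genes of the pathway lists (35), where DESeq2 without the block called 4 and 24. The share of all genes at that unadjusted p was not counted in the fit with the block. Under this block the log2 fold changes were 0.25 for Ddit3 (adjusted p = 0.104), 0.37 for Trib3 (0.0709) and 0.22 for Sesn2 (0.139), so that no member passed. It also ended the calls of Eif2ak2 (0.0711), Gadd45a (0.0584), Atf5 (0.0908), Ppp1r15a (0.0908) and Gadd45g (0.0987). Depth limits Atf3 most, at 168 to 246 counts per library.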
